A study of Mus musculus with 4 samples.

Results

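The data described here are the RNA levels of 22808 genes in testes of Piwil1+/- mice at postnatal day 23, measured in 1 of the 4 libraries of the study. Piwil1 encodes a PIWI protein that binds piRNAs, the small RNAs of late meiotic and postmeiotic male germ cells. The animals carried 1 intact and 1 mutant Piwil1 allele. The mutant allele, the strain and the number of animals pooled are not given in the labels. The other libraries were 1 of Piwil1-/- testes at postnatal day 23 and 2 of small RNAs bound to PIWIL1 in wild-type C57BL/6J testes at 10 weeks, and none of their values is used here. Total RNA was extracted with Isogen, ribosomal RNA was removed with Ribo-Zero Gold, and a directional TruSeq library was sequenced. The question asked of these values was what a heterozygous testis transcribes at this age, and which spermatid genes were still low.

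In the mouse the first germ cells enter meiosis together in the second week after birth, so a prepubertal testis holds only the stages that this first wave has reached. Spermatogonia divide and enter meiosis, pachytene spermatocytes recombine their chromosomes and already store many RNAs for later use, and round spermatids build the acrosome and the tail. Elongating spermatids replace histones first by transition proteins and then by protamines. Sertoli cells nurse the germ cells within the tubules, and Leydig cells between the tubules make testosterone.

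Levels are in RPKM, reads scaled by gene length in kilobases and by the size of the library, so that genes of different length can be set side by side as far as the deposited gene lengths are alike in kind. The values fitted a library of 104014686 reads. At that depth 1 RPKM corresponds to 104 reads per kilobase. The search for this total itself favoured lengths that are multiples of 3, as coding lengths are. Among 611 genes whose value fitted 1 read, 84.3% of the fitted lengths were multiples of 3. That share is not independent of the search. Whether genes were measured over their coding length, without untranslated regions, was not tested. With 1 library there is no spread between animals, and no test was made. Intervals are exact Poisson 95% intervals for the smallest number of reads that fits a value. They cover counting error only, and are too wide where the true number of reads was larger. In whole testis RNA, fewer cells of a type and less RNA per cell cannot be told apart.

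Of the 22808 genes, 9717 (42.6%) reached 1 RPKM, 3807 (16.7%) reached 10 RPKM and 238 (1.04%) reached 100 RPKM. At 0.5 and 5 RPKM the shares were 49.1% and 24.8%. Only Ldhc, mt-Co1, Hsp90aa1 and Tcp1 were above 1000 RPKM. The median was 0.451 RPKM over all genes and 6.81 RPKM over those that reached 1 RPKM. The 3 genes just above 1 RPKM were Gm614, Hsd17b7 and Armcx2, and the 3 just below were Klf8, Pip4k2b and Adora3. A total of 5521 genes were listed at 0. The summed RPKM was spread over many genes: the 10 highest held 5.63% of it, the 100 highest 18.1%, and 829 genes together held 50%. Of the 100 highest genes, 99 were protein-coding in RefSeq, and the other was mt-Co1, which also encodes a protein but had no RefSeq entry here.

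The highest gene was Ldhc at 1638 RPKM, 0.925% of the sum. It encodes the lactate dehydrogenase subunit of male germ cells and lies at chr7:46861263-46878147 of GRCm38.p6. Slc2a3, the glucose transporter GLUT3, followed at 946 RPKM, while Ldha, the general lactate dehydrogenase gene, was at 301 RPKM. The second highest gene was mt-Co1, a mitochondrially encoded cytochrome oxidase subunit, at 1411 RPKM. Chaperones were prominent. Hsp90aa1, a cytosolic HSP90, was at 1404 RPKM, Hsp90b1 of the endoplasmic reticulum was at 344 RPKM, and Hspa4l, an HSP110 gene of the testis, was at 318 RPKM. Tcp1, Cct4 and Cct7, which encode subunits of the ring-shaped chaperonin that folds actin and tubulin, were at 1010, 355 and 332 RPKM. All 8 measured genes of that chaperonin, a family chosen after the values were seen, reached 10 RPKM (16.7% of all genes did). Of the 8, 6 reached 100 RPKM (1.04% of all genes did). The lowest were Cct2 at 87.1 RPKM and Cct6b, a testis form, at 71.6 RPKM.

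Genes of RNA and chromatin handling were next. Ddx5, an RNA helicase gene, was at 763 RPKM. Nasp, a chaperone of linker and core histones, was at 438 RPKM, Smc4, a condensin subunit, at 386 RPKM, and Lyar, a nucleolar factor, at 357 RPKM. Eef1a1, the translation elongation factor, was at 978 RPKM, and Eif4g2, an initiation factor, at 316 RPKM. Trip12 (435 RPKM), Phf7 (386 RPKM) and Trim37 (314 RPKM) encode ubiquitin ligases, and that of Phf7 acts on histones in spermatids.

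Several of the 30 highest genes serve the later sperm. Crisp2, which encodes an acrosomal and tail protein, was at 536 RPKM. Adam3 and Adam32, sperm surface proteins, were at 435 and 357 RPKM. Odf2, of the outer dense fibres that stiffen the tail and of centrioles, was at 420 RPKM. Spata4 and Cfap206, the latter a protein of the axoneme, were at 352 and 351 RPKM. The piRNA pathway gene Mael was at 331 RPKM. Others among the 30 highest were Gstm5, Sccpdh, Matr3 and Rb1cc1, at 376, 365, 333 and 324 RPKM.

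**Figure D1:**
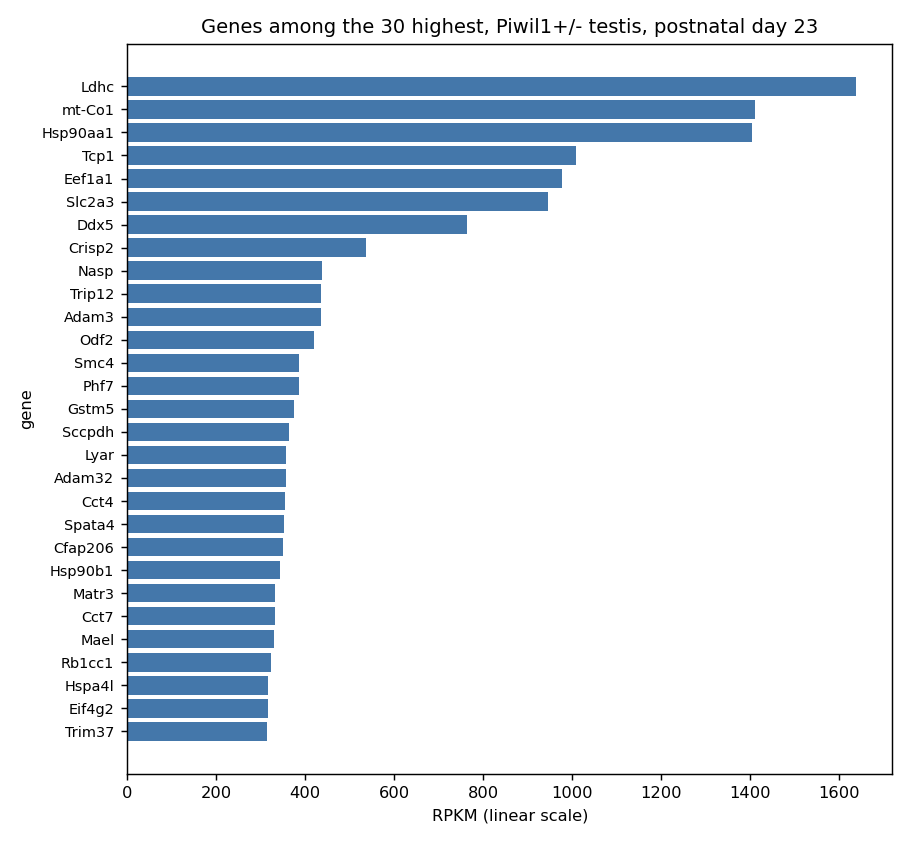
Genes named in the text among the 30 highest by RPKM (linear axis) in the 1 Piwil1+/- library; each bar is 1 gene and there is no error bar because there is 1 library. Levels fall from 1638 RPKM for Ldhc to 314 RPKM for Trim37, and the widest step is from Hsp90aa1 at 1404 RPKM to Tcp1 at 1010 RPKM.

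Spermatogonial genes were low. Of 24 measured, 7 reached 1 RPKM (42.6% of all genes did) and none reached 10 RPKM, with a list median of 0.301 RPKM. The highest was Dmrtb1, which controls the switch from mitosis to meiosis, at 8.60 RPKM. Stra8, the retinoic acid response gene of meiotic entry, was at 4.96 RPKM, and Kit, the receptor of differentiating spermatogonia, at 2.29 RPKM. Uchl1, Sohlh2, Etv5 and Dmrt1 were at 5.55, 2.90, 2.41 and 1.91 RPKM. The stem cell genes Gfra1, the GDNF receptor, and Zbtb16 were at 0.511 and 0.490 RPKM. Id4, Nanos2, Neurog3, Pax7 and Utf1 were listed at 0.

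Meiotic prophase genes were present nearly throughout. Of 40 measured, 37 reached 1 RPKM (42.6% of all genes did), 16 reached 10 RPKM (16.7%) and 6 reached 100 RPKM (1.04%). The list median was 7.63 RPKM. The 6 were structural genes of the meiotic chromosome axis and synaptonemal complex. Stag3, a meiotic cohesin subunit, was at 217 RPKM, Sycp2 at 216 RPKM, Sycp3 at 163 RPKM, Sycp1 at 126 RPKM, Syce1 at 125 RPKM and Hormad1 at 103 RPKM. Other genes of the axis and synaptonemal complex were lower, with Syce2 at 7.92, Rec8 at 7.34, Tex12 at 2.48 and Rad21l at 2.16 RPKM. Genes of DNA breakage and repair also varied: Tex15 was at 80.0, Hfm1 at 32.4 and Hsf2bp at 23.3 RPKM. Spo11, which makes the breaks, was at 12.5 RPKM, the strand exchange gene Dmc1 at 5.31 RPKM and Prdm9, which places the breaks, at 2.45 RPKM. The 3 members below 1 RPKM were Syce3 (0.648 RPKM) and the break formation genes Mei4 (0.397 RPKM) and Rec114 (0.393 RPKM).

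The list of late pachytene and division genes had the highest median of the 5 germ cell stage lists, 33.8 RPKM. Of its 31 members 29 reached 1 RPKM (42.6% of all genes did), 23 reached 10 RPKM (16.7%) and 4 reached 100 RPKM (1.04%). After Ldhc and Adam3 came Ddx25, an RNA helicase of stored messenger RNAs, at 162 RPKM, Pgk2, a glycolytic enzyme made from a retrogene, at 114 RPKM, and Hspa2, a germ cell HSP70, at 94.9 RPKM. Hist1h1t, the testis linker histone gene, was at 83.8 RPKM, and Ccna1, the cyclin of the first meiotic division, at 61.5 RPKM. Aurkc and Cdc25c, regulators of division, were at 4.75 and 3.24 RPKM. Below 1 RPKM were Ovol1 (0.622 RPKM) and Cox8c (0.571 RPKM).

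Genes of round spermatids were already at moderate levels. Of 38 measured, 36 reached 1 RPKM (42.6% of all genes did), 27 reached 10 RPKM (16.7%) and 2 reached 100 RPKM (1.04%). The list median was 19.3 RPKM. Spata4 and Spata16, the latter needed for acrosome formation, were the 2 highest, at 352 and 107 RPKM. Of the acrosome genes, Zpbp2 was at 82.5, Zpbp at 54.6, Dpy19l2, which anchors the acrosome, at 52.4, Spaca1 at 46.8, Acrbp at 38.0, Acrv1 at 25.98, Spaca7 at 19.05 and Spaca3 at 9.32 RPKM. Acr, the acrosomal protease, was at 12.6 RPKM, Spam1, the sperm hyaluronidase, at 14.5 RPKM, and Izumo1, which binds the egg, at 13.3 RPKM. Genes of the 4 pore subunits of the sperm calcium channel were unequal: Catsper2 was at 75.5, Catsper4 at 19.6, Catsper3 at 10.6 and Catsper1 at 7.52 RPKM.

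The cytoskeletal genes of the spermatid head ranged lower. Actl7a was at 37.8, Capza3 at 36.2, Actl9 at 29.0 and Actl7b at 19.8 RPKM. Cylc1 was at 10.7, Ccin at 8.25 and Cylc2 at 7.11 RPKM, and Sun5, which joins the head to the tail, was at 5.17 RPKM. Ropn1l and Ropn1, of the fibrous sheath and radial spokes, were at 98.0 and 40.1 RPKM, and Klhl10, a ubiquitin ligase adaptor, at 51.8 RPKM. The testis serine kinase genes Tssk1, Tssk2 and Tssk3 were at 29.2, 14.7 and 5.27 RPKM. Spert and Tex29 were at 8.43 and 6.17 RPKM. The 3 lowest were Sox30, a transcription factor, at 3.06 RPKM, Spaca4 at 0.751 RPKM and Tssk6 at 0.105 RPKM. The value of Tssk6 fitted at least 3 reads in 274 bases.

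Elongating spermatid genes covered a wide range, from 420 RPKM for Odf2 down to 0.0616 RPKM for Prm1. Of 32 measured, 27 reached 1 RPKM (42.6% of all genes did), 16 reached 10 RPKM (16.7%) and 3 reached 100 RPKM (1.04%). The list median was 10.3 RPKM. Tail genes filled the upper end. Tuba3b, a testis alpha-tubulin with a near-identical copy, was at 260 RPKM, Spata6, which connects head and tail, at 143 RPKM, and Akap4 and Akap3, the anchoring proteins of the fibrous sheath, at 70.5 and 69.1 RPKM. Odf4 was at 50.5, Odf1 at 22.5, Txndc8 at 29.1, Txndc2 at 22.02, Tekt4 at 15.6 and Odf3 at 2.25 RPKM. Oaz3, the spermatid antizyme, was at 44.3 RPKM, and Cabs1 and Spem1 were at 27.0 and 7.92 RPKM. Of the mitochondrial sheath, Spata19 was at 17.2, Spata18 at 12.6 and Smcp at 1.25 RPKM.

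The genes of chromatin compaction lay at the low end, with 2 exceptions. Hmgb4 was at 29.2 RPKM, and Hils1, a linker histone-like gene of spermatids, at 15.6 RPKM. Tnp2, a transition protein gene, was at 2.25 RPKM, which fitted at least 83 reads in 354 bases (interval 1.80 to 2.79 RPKM). Prm2 was at 1.42 RPKM from at least 12 reads and Prm3 at 0.754 RPKM from at least 8 reads. Tnp1 was at 0.458 RPKM from at least 3 reads (0.0944 to 1.34 RPKM if there were only 3). Prm1 was at 0.0616 RPKM from 1 read in 156 bases (0.00156 to 0.343 RPKM). Other low members were Fscn3 (4.04 RPKM), Tppp2 (3.67 RPKM), Dbil5 (3.31 RPKM), Ggn (2.26 RPKM), Tex37 (1.72 RPKM) and Spata3 (1.67 RPKM). Oxct2b and Oxct2a, near-identical retrogenes between which reads may be split, were at 0.990 and 0.590 RPKM.

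**Figure D2:**
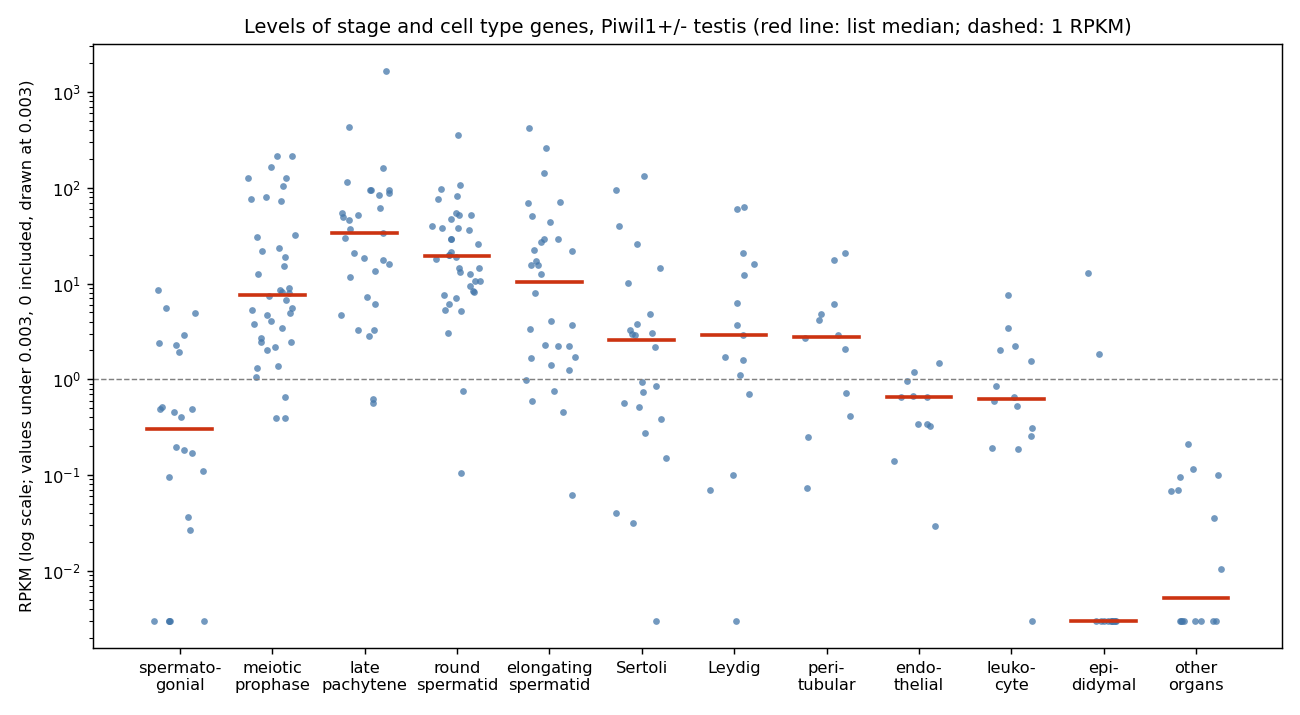
RPKM (log axis) of the members of 12 gene lists in the 1 Piwil1+/- library; each point is 1 gene, red lines are list medians, the dashed line is 1 RPKM, and values under 0.003 RPKM, 0 included, are drawn at 0.003. Of the 12 lists drawn, which leave out the sperm tail list (median 41.1 RPKM) among others, late pachytene has the highest median, 33.8 RPKM, and Prm1 is the lowest point of the elongating spermatid list, at 0.0616 RPKM.

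The low values of short genes were not limited to spermatid genes. Rpl39, a ribosomal protein gene that every cell uses, was at the same 0.0616 RPKM as Prm1, also from 1 read in 156 bases. Among 76 cytoplasmic ribosomal protein genes, a family chosen after the values were seen, 71 reached 1 RPKM (42.6% of all genes did). The family median was 27.3 RPKM, and the highest value was 121 RPKM for Rpl7. The 5 below 1 RPKM were Rps21 (0.763), Rpl38 (0.542), Rps29 (0.169), Rpl39 and Rpl41, which was listed at 0. Of 78 nuclear genes of the respiratory chain and ATP synthase, 63 reached 1 RPKM (42.6% of all genes did). The median of the 78 was 4.81 RPKM. Atp5b was the highest at 153 RPKM, whereas Uqcrq was at 0.141 RPKM, Uqcr11 at 0.0562 RPKM from 1 read, and Cox8a was listed at 0. The low values of Prm1, Prm2, Prm3, Tnp1 and other short genes can therefore not be read as genes that were off. The part of gene length or of read counting in them was not tested.

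**Figure D3:**
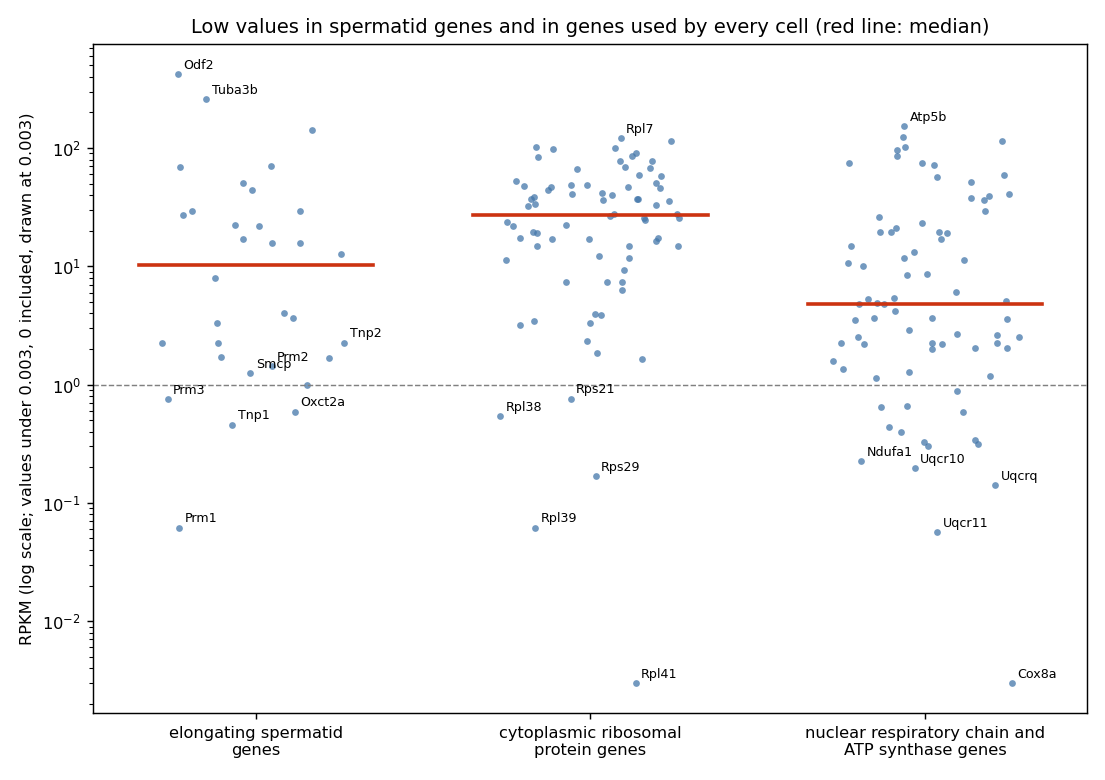
RPKM (log axis) of 32 elongating spermatid genes, 76 cytoplasmic ribosomal protein genes and 78 nuclear respiratory chain and ATP synthase genes in the 1 Piwil1+/- library; each point is 1 gene, red lines are medians, the dashed line is 1 RPKM and 0 is drawn at 0.003. Rpl39 and Prm1 lie at the same height, 0.0616 RPKM, far below the ribosomal median of 27.3 RPKM.

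The mitochondrially encoded genes showed the same unevenness within a genome whose genes are transcribed in long shared precursors. Beside mt-Co1 at 1411 RPKM, mt-Nd1 was at 126, mt-Cytb at 86.3, mt-Nd4 at 40.4, mt-Nd2 at 38.9, mt-Nd5 at 34.6, mt-Nd6 at 17.1 and mt-Co2 at 10.3 RPKM. The values of mt-Nd3, mt-Atp6 and mt-Co3 each fitted 1 read, at 0.0276, 0.0141 and 0.0123 RPKM. Both mt-Atp8 and mt-Nd4l were listed at 0. The 13 genes held 0.996% of the summed RPKM, most of it mt-Co1, so that this share cannot be taken as the share of mitochondrial RNA.

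Transcription regulators of the germ line were mostly above 1 RPKM. Of 24, 21 reached 1 RPKM (42.6% of all genes did) and 13 reached 10 RPKM (16.7%), with a median of 12.1 RPKM. The highest was Kctd19, a meiotic regulator that works with Zfp541, at 149 RPKM, while Zfp541 was at 13.1 RPKM. Components of the general transcription machinery made for spermatids were well represented. Tbpl1, the TBP-like factor, was at 93.9 RPKM, Gtf2a1l, a germ cell TFIIA subunit, at 74.2 RPKM, and Taf7l at 18.7 RPKM. Crem, the main activator of spermatid genes, was at 89.0 RPKM, its coactivator Fhl5 (ACT) at 21.6 RPKM, and the related factors Atf1 and Creb1 at 22.9 and 4.17 RPKM. Tcfl5 and Mybl1, activators of pachytene genes, were at 54.1 and 36.7 RPKM, and Brdt, a bromodomain protein of meiotic and spermatid chromatin, at 53.9 RPKM. Hsf2, a heat shock factor, was at 16.3 RPKM.

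Of the RFX factors, Rfx4 was at 11.1, Rfx2 at 6.06 and Rfx3 at 3.24 RPKM, and Sox30, which acts in round spermatids, was at 3.06 RPKM. Btbd18, which drives pachytene piRNA precursors, was at 2.08 RPKM. Of the regulators of the spermatogonial phase, Dmrtb1 was at 8.60, Sohlh2 at 2.90, Dmrt1 at 1.91, Zbtb16 at 0.490 and Sohlh1 at 0.457 RPKM. The 16 listed CREM and ACT targets had a median of 14.1 RPKM, and 14 of them reached 1 RPKM (42.6% of all genes did). They ran from Ldhc at 1638 RPKM through Akap4 (70.5), Odf1 (22.5), Gapdhs (17.9) and Tekt4 (15.6) to Tnp2 (2.25), Smcp (1.25), Tnp1 (0.458) and Prm1 (0.0616 RPKM).

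CREM binds the cyclic AMP response element, TGACGTCA. Promoters are shown here because the 5 genes span the range of levels in this testis, and 4 of them, all but Izumo1, are listed CREM or ACT targets. Each line gives the 150 bases before the first RefSeq start of GRCm38.p6, 5′ to 3′ on the gene's strand. Capitals mark TGACGTCA in Izumo1, matches to TGANGTCA on either strand in Tnp1, Prm1 and Akap4, and its core TGACG in Ldhc. The windows are chr7:46861113-46861262 on the plus strand for Ldhc, chrX:7067365-7067514 on the plus strand for Akap4, chr7:45621661-45621810 on the plus strand for Izumo1, chr1:73015900-73016049 on the minus strand for Tnp1 and chr16:10796824-10796973 on the minus strand for Prm1.
Ldhc: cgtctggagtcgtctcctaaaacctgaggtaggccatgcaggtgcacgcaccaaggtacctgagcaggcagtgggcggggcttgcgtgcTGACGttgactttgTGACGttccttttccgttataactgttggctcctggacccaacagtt
Akap4: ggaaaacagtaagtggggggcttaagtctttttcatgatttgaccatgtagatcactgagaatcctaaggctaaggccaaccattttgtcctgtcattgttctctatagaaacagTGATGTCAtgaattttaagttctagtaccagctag
Izumo1: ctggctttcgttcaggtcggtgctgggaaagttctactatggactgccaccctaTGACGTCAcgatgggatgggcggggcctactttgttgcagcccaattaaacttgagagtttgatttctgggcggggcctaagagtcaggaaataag
Tnp1: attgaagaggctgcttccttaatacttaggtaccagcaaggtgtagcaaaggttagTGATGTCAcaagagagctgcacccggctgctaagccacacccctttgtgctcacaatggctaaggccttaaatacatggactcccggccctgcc
Prm1: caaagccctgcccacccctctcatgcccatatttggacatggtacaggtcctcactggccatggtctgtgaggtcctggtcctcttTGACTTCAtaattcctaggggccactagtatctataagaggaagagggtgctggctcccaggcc

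The Ldhc promoter held TGACG at 61 to 57 and at 47 to 43 bases before the start, and no full TGACGTCA in this window. In Izumo1 the full element lay 96 to 89 bases before the start. The match lay 94 to 87 bases before the start in Tnp1, 64 to 57 in Prm1 and 35 to 28 in Akap4. The windows shown for Akap4 (70.5 RPKM) and Tnp1 (0.458 RPKM) held the same letters, TGATGTCA. Akap4 and Ldhc each have another RefSeq start. The 150 bases before that start held no TGANGTCA in Akap4 and no TGACG in Ldhc. Which start was used in this testis was not tested. A match describes the letters only, and factor binding was not measured.

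Promoters of 300 bases, 250 before and 50 after a start, were at hand for 16814 genes (73.7%), and both strands were searched. TGACGTCA occurred in 2.64% of these genes. Among the 100 highest genes it occurred in 2 of the 73 with a promoter, Ldha (301 RPKM) and Mlf1 (203 RPKM). It occurred in 2 of 34 round spermatid genes, Izumo1 and Ccin, and in 0 of 30 elongating spermatid genes. The core TGACG, which every TGACGTCA contains, occurred in 26.9% of all genes with a promoter and in 18.9% of those below 1 RPKM. It was present in 41.1% of those among the 100 highest genes and in 40.2% of the genes from 10 to 100 RPKM. The germ cell lists were not raised in this way. Meiotic prophase genes held TGACG in 25.8%, late pachytene genes in 26.1%, round spermatid genes in 29.4% and elongating spermatid genes in 20%. In the gene pairs described below, 19.4% of testis members and 48.5% of general members held it.

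The looser TGANGTCA, which includes every TGACGTCA, was searched after the Tnp1, Prm1 and Akap4 promoters had been seen. It occurred in 9.38% of all genes with a promoter and in 6.85% of the 100 highest. It occurred in 17 of 34 round spermatid genes (50%) and 12 of 30 elongating spermatid genes (40%), or 9 of 27 without those 3 genes. In meiotic prophase genes it occurred in 1 of 31, and in late pachytene genes in 4 of 23. With the listed CREM and ACT targets left out, 23 of 54 genes of both spermatid lists (42.6%) held it. Of its matches, 21 of 27 (77.8%) in round and 11 of 13 (84.6%) in elongating spermatid genes began within 100 bases before the start. A gene can hold more than 1 match. The share was 57.6% in all genes with a promoter, 61.8% in those from 1 to 10 RPKM and 67.2% in those from 10 to 100 RPKM. The spermatid genes with a match ranged from Spata6 at 143 RPKM, Akap3 at 69.1 RPKM and Ropn1 at 40.1 RPKM to Spata3 at 1.67 RPKM and Prm1. These shares are descriptions of lists chosen with results of these data known, with no test.

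The piRNA pathway was expressed nearly as a whole. Of 26 genes, 24 reached 1 RPKM (42.6% of all genes did), 18 reached 10 RPKM (16.7%) and 3 reached 100 RPKM (1.04%). The list median was 26.9 RPKM. Mael, which supports transposon silencing and piRNA precursor output, was at 331 RPKM, Ddx4, the germ granule helicase MVH, at 159 RPKM, and Tdrd6, a scaffold of the chromatoid body, at 128 RPKM. Of the PIWI genes, Piwil2 was at 38.6 RPKM, Piwil1 at 26.2 RPKM and Piwil4, which acts in fetal germ cells, at 0.141 RPKM. Piwil1 lies at chr5:128736071-128755474, and its value fitted at least 17952 reads (25.9 to 26.6 RPKM). Whether this equals the level of a testis with 2 intact alleles cannot be told, because no wild-type library of this age was analysed.

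Of the other Tudor domain genes, Tdrd7 was at 58.7, Tdrd9 at 58.6, Tdrd1 at 45.7, Tdrd12 at 43.6 and Tdrkh at 10.6 RPKM. Gtsf1, a PIWI cofactor, was at 59.5 RPKM, and Mov10l1, the helicase that starts precursor processing, at 30.1 RPKM. Of the enzymes that shape the ends of piRNAs, Henmt1, the 3′ methyltransferase, was at 11.5 RPKM, Pnldc1, the 3′ trimming nuclease, at 2.03 RPKM, and Pld6, the mitochondrial endonuclease, at 0.289 RPKM.

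A further 20 genes were listed for the storage and handling of germ cell RNAs, with a median of 24.5 RPKM. Of these, 19 reached 1 RPKM (42.6% of all genes did) and 6 reached 100 RPKM (1.04%). The member below 1 RPKM was the kinase gene Tssk6, at 0.105 RPKM, which is also in the round spermatid list. Pabpc1, the poly(A) binding protein, was at 250 RPKM and its retrogene Pabpc2 at 117 RPKM. Boll and Dazl, RNA binding proteins of the DAZ family, were at 121 and 43.0 RPKM, Adad1 at 108 RPKM and Papolb, the testis poly(A) polymerase, at 107 RPKM. Ybx3 and Ybx2, which hold messenger RNAs untranslated, were at 42.0 and 17.7 RPKM, and Cpeb1 was at 1.45 RPKM.

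All 24 genes of the sperm tail, sheath and fibres reached 1 RPKM (42.6% of all genes did). The list median was 41.1 RPKM, and 21 of them reached 10 RPKM (16.7% of all genes). The highest after Odf2 were Dnah8, a heavy chain of the axonemal dynein arms, at 194 RPKM, and Fsip2, of the fibrous sheath, at 162 RPKM. Tekt1, Spag6l and Cfap43, of the axoneme, were at 96.0, 89.3 and 87.7 RPKM. The lowest were Tekt5 (7.09 RPKM), Odf3 (2.25 RPKM) and Smcp (1.25 RPKM). Genes of this list overlap those of the spermatid lists.

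Many general enzymes have a testis form, often made from a retrogene. In 45 pairs of a testis gene and its general relative, the testis member was the higher in 28. It was at least 2-fold higher in 21 pairs and the general member at least 2-fold higher in 12, as differences of log2 (RPKM + 1). The members of a pair can be scaled by lengths of unlike kind. Cetn1 fitted a length of at least 519 bases and Cetn2 at least 1837 bases, and Aldoa and Tbp fitted at least 6937 and 6613 bases. A longer divisor gives a lower RPKM for the same reads, and the pairs were not compared over other lengths. The X chromosome is silenced in pachytene spermatocytes, and 13 of the general members are X-linked. In these pairs the testis member was higher in 10, with a median log2 difference of 2.32, while in the 32 pairs with an autosomal general member it was higher in 18, with a median of 0.21. The medians of RPKM were 11.3 for testis and 2.58 for general members in the X-linked pairs, and 27.4 and 19.2 in the autosomal pairs.

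Among the X-linked pairs, Gk2, a glycerol kinase, was at 226 RPKM and Gk at 0.398 RPKM, a ratio of 567. Cetn1, a centrin, was at 214 RPKM and Cetn2 at 2.41 RPKM. Pgk2 was at 114 RPKM and Pgk1 at 6.08 RPKM, a ratio of 18.7. Pdha2, of pyruvate dehydrogenase, was at 49.0 RPKM and Pdha1 at 1.28 RPKM. The meiotic cohesin genes Stag3 and Smc1b were at 217 and 72.1 RPKM, and their X-linked relatives Stag2 and Smc1a at 16.1 and 7.35 RPKM. Utp14b, needed for ribosome assembly, was at 11.3 RPKM and Utp14a at 1.47 RPKM. Cox7b2, Rpl39l and G6pd2 were at 2.24, 0.863 and 3.37 RPKM, and their general partners Cox7b, Rpl39 and G6pdx at 0.317, 0.0616 and 2.58 RPKM. The exceptions were Rpl10l (7.02 RPKM) below Rpl10 (14.9 RPKM), Rbmxl2 (0.125 RPKM) below Rbmx (2.71 RPKM), and Cstf2t and Cstf2, both at 11.1 RPKM.

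In the autosomal pairs the roles differed. In cell division Ccna1 was at 61.5 RPKM and Ccna2 at 5.22 RPKM, whereas Rad21l, an early prophase cohesin, was at 2.16 RPKM and Rad21 at 11.6 RPKM. In transcription Gtf2a1l stood at 74.2 RPKM beside Gtf2a1 at 5.61 RPKM, and Tbpl1 at 93.9 RPKM beside Tbp at 39.7 RPKM. Taf7l and Taf7 were at 18.7 and 18.8 RPKM. The 2 calcineurin pairs also favoured the testis member, with Ppp3r2 at 51.2 and Ppp3r1 at 3.20 RPKM, and Ppp3cc at 66.6 and Ppp3ca at 14.6 RPKM. Psma8, the spermatocyte proteasome subunit, was at 55.3 RPKM and Psma7 at 12.2 RPKM.

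Glycolysis was mixed. Ldhc was 5.44 times Ldha, and Gapdhs at 17.9 RPKM was close to Gapdh at 14.2 RPKM. The aldolase retrogenes Aldoart2 and Aldoart1 were at 12.7 and 7.87 RPKM beside Aldoa at 41.2 RPKM, and Eno4 was at 9.81 RPKM beside Eno1 at 30.9 RPKM. In mitochondrial metabolism the testis member was the higher in 8 of 9 pairs. Besides the X-linked ones, Cyct, the testis cytochrome c, was at 6.83 RPKM and Cycs at 1.18 RPKM, and Slc25a31, an ATP carrier, was at 25.6 RPKM and Slc25a4 at 6.999 RPKM. Cox6b2 was at 0.752 RPKM and Cox6b1 at 0.440 RPKM, and Cox8c at 0.571 RPKM with Cox8a listed at 0. The exception was Oxct2a at 0.590 RPKM beside Oxct1 at 10.1 RPKM.

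In RNA handling the testis member was the higher in only 2 of 7 pairs. It was the higher in 2 of 4 chaperone pairs and in 2 of 4 pairs of the cytoskeleton and transport. Pabpc2 and Pabpc6 were at 117 and 99.7 RPKM beside Pabpc1 at 250 RPKM, and Ybx2 at 17.7 RPKM beside Ybx1 at 155 RPKM, while Papolb was at 107 RPKM and Papola at 45.1 RPKM. Papola was scaled by at least 7877 bases and Papolb fitted at least 1929 bases, so the order of this pair may rest on the deposited lengths. Calr3 was at 15.9 RPKM and Calr, the calcium-binding chaperone, at 215 RPKM. Clgn at 93.9 RPKM lay beside Canx at 91.1 RPKM, and Hspa2 at 94.9 RPKM beside Hspa8 at 127 RPKM. Hspa1l was at 7.23 RPKM, while Hspa1a, a heat-induced HSP70, was at 0.00998 RPKM. Tuba3b at 260 RPKM was far above Tuba1b at 12.4 RPKM, but Actl7b was below Actb (129 RPKM) and Capza3 below Capza1 (96.5 RPKM). Hmgb4 was at 29.2 RPKM beside Hmgb1 at 35.1 RPKM. Reads of such related genes may be shared between them.

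**Figure D4:**
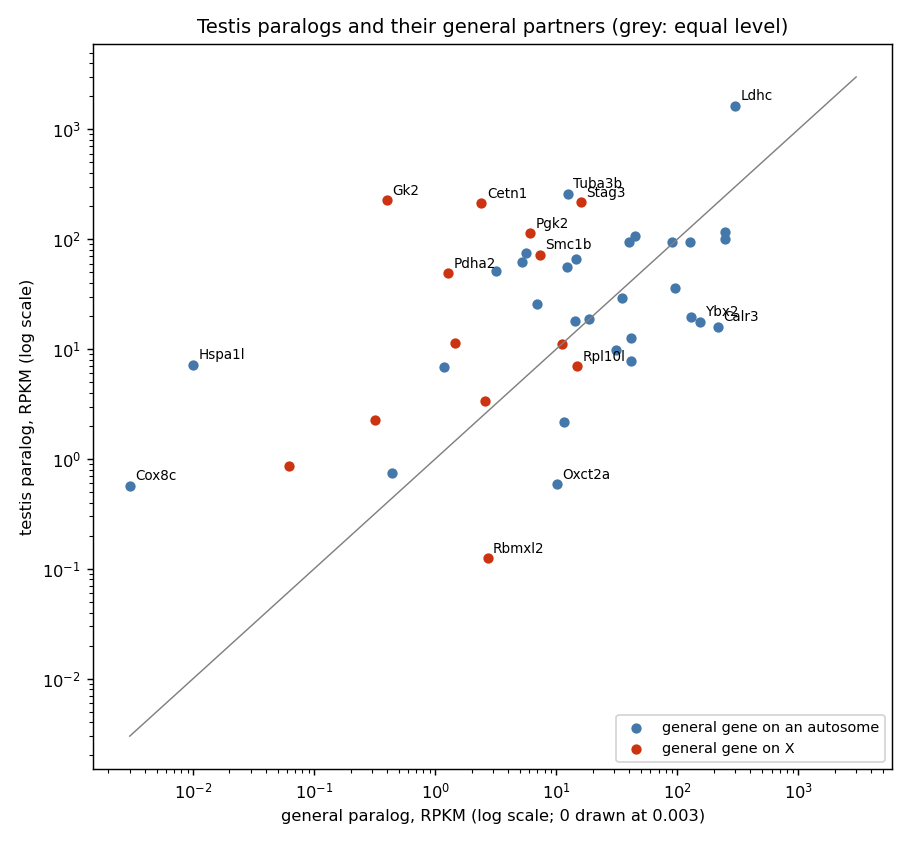
RPKM of the testis member (vertical axis) and of the general member (horizontal axis) of the gene pairs named in the text, both on log axes, in the 1 Piwil1+/- library; red points have an X-linked general member, blue points an autosomal one, the grey line is equal level and 0 is drawn at 0.003. In 10 of the 13 X-linked pairs the point lies above the line, with Gk2 and Gk the farthest of the X-linked pairs at a ratio of 567.

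The X chromosome as a whole held few highly expressed genes. Of 918 X-linked genes, 344 (37.5%) reached 1 RPKM, beside 44.2% of 20792 autosomal genes. At 10 RPKM the shares were 5.45% (50 genes) and 17.9%, and at 100 RPKM 0 of 918 and 1.13%. Among genes that reached 1 RPKM, the median was 2.94 RPKM on X and 7.12 RPKM on the autosomes. Over the 19 autosomes the share at 1 RPKM ran from 34.1% to 52.3%, a range that includes X, and the share at 10 RPKM from 12.7% to 23.2%, all above X. The highest X-linked genes were Usp9x, a deubiquitinase, at 72.8 RPKM, Akap4 at 70.5 RPKM, Rbbp7, a histone-binding protein, at 50.8 RPKM, and Thoc2, of messenger RNA export, at 46.2 RPKM.

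The highest gene of each autosome reached at least 231 RPKM, the value of Psmd2 on chromosome 16. Those not among the 30 highest genes were Gkap1 on chromosome 13 at 261 RPKM, Pabpc1 on chromosome 15, Psmd2 on chromosome 16 and Asrgl1 on chromosome 19 at 306 RPKM. Of 122 Y-linked genes, 30 (24.6%) reached 1 RPKM. They were led by Eif2s3y, a translation initiation factor subunit needed in spermatogonia, at 17.7 RPKM, Ddx3y at 10.1 RPKM, Uba1y at 7.47 RPKM and Uty at 5.09 RPKM. Ssty2, of a multicopy spermatid family whose copies can share reads, was at 2.56 RPKM.

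**Figure D5:**
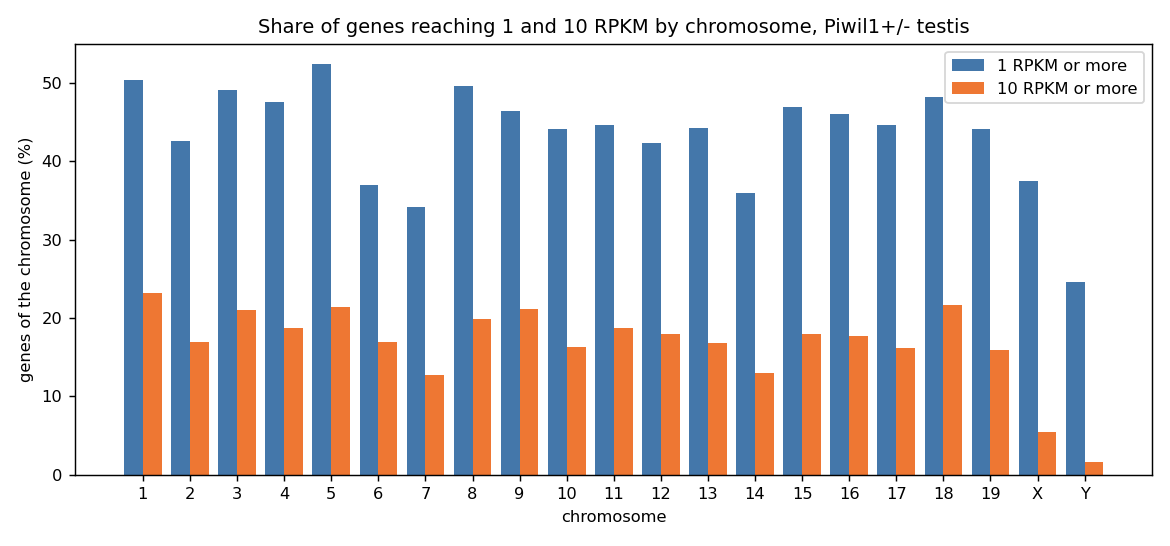
Percentage of the genes of each chromosome that reached 1 RPKM (blue) and 10 RPKM (orange) in the 1 Piwil1+/- library; bars start at 0. X has 37.5% of its genes at 1 RPKM, within the autosomal range, and 5.45% at 10 RPKM, below the lowest autosome at 12.7%.

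Sertoli, Leydig and peritubular gene lists had lower medians than the meiotic prophase list, and their defining markers were uneven. Of 24 Sertoli cell genes 13 reached 1 RPKM, beside 42.6% of all genes, with a median of 2.55 RPKM and a sum of 344 RPKM. Clu, a secreted chaperone, was at 133 RPKM, Ctsl, a lysosomal protease, at 93.7 RPKM, and the cystatins Cst12 and Cst9 at 39.7 and 26.03 RPKM. Wt1 was at 2.93, Rhox5 at 2.17, the hormone receptor Fshr at 0.948 and Gata4 at 0.862 RPKM. The Sertoli cell genes Sox9 and Amh were at 0.0315 and 0.0404 RPKM, and Gdnf was listed at 0. The sum rests mainly on Clu and Ctsl, which other cells also express.

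Of 15 Leydig cell genes 11 reached 1 RPKM, beside 42.6% of all genes, with a median of 2.93 RPKM and a sum of 190 RPKM. The steroid synthesis genes Cyp17a1, Cyp11a1 and Hsd3b1 were at 63.0, 59.8 and 20.96 RPKM. Hsd3b6, the adult Leydig cell form, was at 12.3 RPKM, and Star, which brings cholesterol into mitochondria, at 3.68 RPKM. Insl3, a short Leydig cell hormone gene, was listed at 0, Ptgds was at 0.101 RPKM and Hsd11b1 at 0.0700 RPKM. Smooth muscle and peritubular genes had their median at 2.79 RPKM and their lowest value at 0.0735 RPKM. Acta2 and Actg2, at 20.97 and 17.6 RPKM, were the only 2 to reach 10 RPKM (16.7% of all genes did). Of the 12 listed genes 8 were at 1 RPKM or more, beside 42.6% of all genes.

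Genes of endothelial cells, leukocytes and red blood cells had medians of 0.657, 0.623 and 0.381 RPKM, near the 0.451 RPKM of all genes, and none reached 10 RPKM. At 1 RPKM or more were 2 of 11, 5 of 14 and 3 of 7 genes, beside 42.6% of all genes, and the highest were Cdh5 (1.48 RPKM), Mrc1 of macrophages (7.64 RPKM) and Hbb-bs (4.46 RPKM). Of 12 epididymal genes 10 were listed at 0, Crisp1 and Lcn5 among them. The 2 others were Cst8 at 12.9 RPKM and Rnase10 at 1.83 RPKM. None of 16 genes of other organs reached 1 RPKM (42.6% of all genes did), the highest being Myh6 of heart muscle at 0.211 RPKM. Immediate early genes, which handling of tissue can induce, were also low. All 9 were below 1 RPKM, a level that 42.6% of all genes reached. Nr4a1 was the highest at 0.373 RPKM, and Fos was at 0.0589 RPKM. All 16 housekeeping genes reached 1 RPKM (42.6% of all genes did), from Eef1a1 down to B2m at 2.14 RPKM.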

How the data were processed

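RNA of Piwil1+/- testes at postnatal day 23 was measured in 1 library, grouped by the genotype in its label. The authors deposited RPKM values per gene, per the file headers. Bowtie, STAR and the mm10 build were used, per the submitters' processing notes; not given in the sources used here are the read counter, its use of strand, the annotation and the way gene lengths were built. Reads of overlapping genes, antisense genes and near-identical copies may therefore be mixed or split. Only the Piwil1+/- column was used; the Piwil1-/- and small RNA values were not analysed here.

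Symbols matched 22444 of 22808 identifiers (98.4%), and 21837 had a RefSeq gene of GRCm38.p6, the assembly of mm10, which supplied coordinates and promoters. No value was filtered. Ratios use RPKM as deposited, and log2 differences a pseudocount of 1.

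An RPKM value is a whole number of reads divided by gene length and library total. The total that let most of a sample of genes fit whole reads and lengths in multiples of 3 was 104014686. It fitted 82.7% of the sample, and the next best total fitted 0.667%. Whole reads followed for 17011 of 17287 genes above 0 (98.4%), with lengths up to 30000 bases, values of 10 significant digits and at most 0.05 fits expected by chance. A factor common to reads and length is lost, so reads and lengths are the smallest that fit. On simulated data of 16923 genes the total was found and 99.6% of genes were fitted, all in the true ratio. Most simulated lengths were made multiples of 3, so the simulation could not test that choice. For genes with several transcripts the fitted length can differ from the coding length.

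The members and gene lists were chosen with earlier results of these data known; the gene families and TGANGTCA were added after these values were seen. Of 13 structural noncoding RNA genes none had a row in the table, and of the meiotic prophase list Spata22 had none. Named are the 30 highest genes, the highest of each chromosome, the highest and lowest of each list, all round and elongating spermatid genes and germ line regulators, all pairs, and the genes next to 1 RPKM; a few genes under this rule, and their pairs, are not reported here but stay in the counts and medians. Further list and family members, and the Y-linked genes, were named after their values were seen. Alternatives were other level minima, other gene sets, another pseudocount and other motifs or windows. Python 3.11.15, numpy 2.4.6, pandas 2.3.3, scipy 1.17.1 and matplotlib 3.10.9 were used.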

Additional observations from a re-analysis of the deposited data

How the results depend on the processing

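With 1 library no replicate could be left out. No paired analysis was possible because the part described holds 1 library and no groups were compared. The depth limits short genes most: at the same RPKM they hold fewer reads, and values at 0 are only listed at 0. The share of summed RPKM in the 10 highest genes was 5.63%, and 5.13% without mitochondrially encoded genes. It was 5.69% over genes at 1 RPKM or more and 5.19% over RefSeq protein-coding genes, a set that lacks mt-Co1. The share in the 100 highest was 18.1%, and 17.6%, 18.3% and 17.8% under the same 3 choices. At 5 in place of 1 RPKM, 2 spermatogonial, 24 meiotic prophase and 17 elongating spermatid genes and 107 X-linked genes passed. Over members at 1 RPKM or more, the medians were 2.90 (spermatogonial), 8.18 (meiotic prophase), 36.7 (late pachytene), 19.7 (round spermatid) and 15.6 RPKM (elongating spermatid). Without members of another list they were 0.171 RPKM for spermatogonial, 19.6 RPKM for round and 7.92 RPKM for elongating spermatid genes. Among the 100 highest genes, 30 promoters held TGACG and 5 held TGANGTCA, beside 2 with TGACGTCA. The other 16 alternatives of the main counts and medians moved a count by less than 1.5 times or left a median as it was. Somatic lists moved too: at 5 RPKM 6 Sertoli, 6 Leydig and 3 peritubular genes passed. At 0.5 RPKM 6 endothelial and 9 leukocyte genes did, and over members at 1 RPKM or more the Sertoli and Leydig medians were 4.83 and 6.29 RPKM. At a pseudocount of 0.1 no pair changed sign, and in the 36 pairs with both members at 1 RPKM or more the testis member was higher in 21.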

Other observations

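The ADAM family, chosen after the values were seen, holds sperm surface genes and general proteases. Of its 33 measured members, 25 reached 1 RPKM (42.6% of all genes did) and 4 reached 100 RPKM (1.04%). Besides Adam3 and Adam32, Adam5 was at 243 RPKM and Adam2 (fertilin beta) at 120 RPKM, while Adam7, an epididymal gene, and Adam28 were listed at 0. Of 39 proteasome genes 35 reached 1 RPKM (42.6% of all genes did), with Psmd2 at 231 and Psmc3 at 214 RPKM. The 4 below were Psmb8, Psmb10 and Psmb9, of the immunoproteasome, at 0.293, 0.211 and 0.0293 RPKM, and Psmb11, of the thymus, listed at 0. Of 19 tubulin genes 14 reached 1 RPKM (42.6% of all genes did). The highest were Tuba3b at 260, Tubb4b at 219 and Tuba3a at 169 RPKM. Lower members included Tuba1a at 27.7, Tubb3 at 5.37 and Tubb2b at 0.0431 RPKM, and Tubb4a, which was listed at 0.

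Genes listed under a clone or model name made up 2126 of the table, some of which also have a gene name. Of these, 117 reached 10 RPKM, a smaller share than the 16.7% of all genes. At 100 RPKM there were 6, also a smaller share than the 1.04% of all genes. They were led by 4922502D21Rik at 172 RPKM and 1700010I14Rik at 162 RPKM, on chromosomes 6 and 17. Olfactory receptor genes, of which 1099 were measured, were nearly all below 1 RPKM. Only 3 reached 1 RPKM (42.6% of all genes did), the highest at 2.61 RPKM. Listed at 0 were 894 of them, beside 5521 of all 22808 genes.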
